A study of Mus musculus with 79 samples.

Results

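The comparison described here was that of stressed with unstressed mice among the ketamine-treated animals, in the ventral hippocampus (vHipp). Members were chosen from the sample titles alone, as the vHipp libraries of CSDS mice given ketamine and of CTRL mice given ketamine. They numbered 20 of the 79 libraries analyzed, 10 from CSDS mice and 10 from CTRL mice. All mice were male, wild-type, outbred CD-1 (ICR) animals that were not siblings, 9 to 10 weeks old, and housed in groups of 4. CSDS mice went through a modified chronic social defeat stress, in which each was attacked by a different aggressive resident mouse on each of 21 days and was then put back with its own group. CTRL mice stayed group-housed in the same room. All mice then moved to the Social Box (SB), a tracked arena for a whole group, and both groups described here received a single intraperitoneal dose of (R,S)-ketamine at 10 mg/kg on day 4 in the SB. Tissue was collected after 7 further days in the SB, so the libraries describe the period well after the injection. The series also held 20 vHipp libraries of saline-treated mice (CSDS and CTRL) and 39 libraries of the medial prefrontal cortex (mPFC), of which 19 came from the same ketamine-treated mice. Social rank and SB were not used here, and mice of one group can differ in both.

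The ventral hippocampus is the part of the hippocampal formation that projects to the amygdala, the hypothalamus and the prefrontal cortex, and it is known for its role in anxiety-like and stress-related behavior. Its granule cells in the dentate gyrus send mossy fibers to CA3 pyramidal cells, which drive CA1 pyramidal cells. Hippocampal neurons carry both glucocorticoid and mineralocorticoid receptors and are a classical target of stress hormones. Ketamine blocks the channel of the NMDA receptor, a glutamate receptor, and its lasting actions in rodents have been tied to the growth factor BDNF, its receptor TrkB and mTOR-dependent protein synthesis. The comparison asks which transcripts differed between defeated and undefeated mice once both had received ketamine.

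Total counts per library were 13659739 to 32814917 (median 19740676) in CSDS mice and 16539848 to 41767119 (median 19536615) in CTRL mice, and did not differ between groups beyond their spread (permutation test, two-sided p = 0.553). Between 24668 and 27769 genes were detected per library. The 7 dentate granule cell markers, which check the labelled tissue, summed to 190 to 719 CPM (counts scaled to the same library total) in these 20 libraries and to 72.3 to 110 CPM in the mPFC of the same mice, so the regions did not overlap. The 6 markers listed for CA1 pyramidal cells and the 6 listed for the ventral hippocampus were no such check, since the mPFC libraries of these mice had higher sums of the first (at least 528 CPM) than most vHipp libraries and overlapped with them for the second. The library of mouse 11 (CSDS) stood apart from the others, and that of mouse 1 (CSDS) did so less. The summed astrocyte markers were 12606 CPM in mouse 11 against 4108 to 7556 CPM in the other 9 CSDS mice, and the summed mitochondrially encoded genes 74827 CPM against at most 40498 CPM. Results that rest on mouse 11 are therefore given with and without it. The mPFC library of mouse 11 did not stand apart, at 5294 CPM for the astrocyte markers (4157 to 5851 CPM over the 9 CSDS mice of that region).

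No gene passed the test. Of 28991 genes tested with edgeR's quasi-likelihood test, 0 (0%) had a Benjamini-Hochberg adjusted p under 0.05, the smallest adjusted p being 0.896. DESeq2 and limma-voom also gave 0 (smallest adjusted p 0.435 and 0.986). The lowest adjusted p of any setting was 0.149, by DESeq2 with sets of mouse numbers as a covariate. An unadjusted p under 0.05 was reached by 1572 genes, 5.42% of those tested. Of these, 814 (2.81%) were higher and 758 (2.61%) lower in CSDS mice by edgeR, 742 and 560 by DESeq2, and 636 and 638 by limma-voom. No gene had groups that did not overlap (0 of 28991, 0%).

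The size of difference that this comparison could have missed was small for well-measured genes. Among the 15513 genes with a mean of at least 1 CPM, the median standard error (SE) of the log2 fold change (LFC) was 0.09. The 95% interval of the LFC lay within 1.5-fold in either direction for 13943 of them (89.9%). For these genes a larger change of the group mean lay outside the interval. For the rest the interval reached beyond 1.5-fold. Because the samples are pieces of whole tissue, fewer cells of a type and less RNA per cell cannot be told apart. The mice are separate animals by their numbers in the labels, but mice of one group of 4 shared a box. By the paper, whole groups of 4 were either stressed or kept as controls. Any effect of a shared box can therefore not be told apart from stress. The tests treated mice as independent, so their p-values and intervals leave out the spread between boxes.

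**Figure D1:**
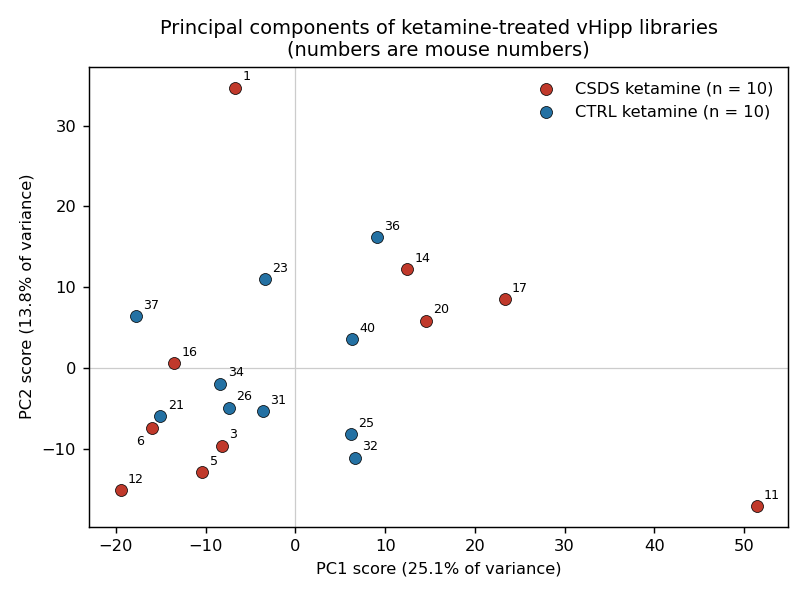
Scores of the 20 libraries on the first principal component (x axis, 25.1% of variance) and the second (y axis, 13.8% of variance), computed from log2(CPM + 0.5) of 15513 genes; each point is a mouse, colored by group and labelled with its number. CSDS and CTRL mice intermingle, and mouse 11 (PC1 51.4) and mouse 1 (PC2 34.7) lie outside the range of the other 18.

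The main directions of variation among the 20 libraries did not separate the groups. On PC1 the CSDS mice ranged from -19.5 to 51.4 and the CTRL mice from -17.8 to 9.11 (permutation test, p = 0.513), and on PC2 the group means were -0.00 and 0.00 (p = 0.996). Genes with large loadings on PC1 included Dnah6, 9130024F11Rik, Pou3f1 and Ccn3 on the positive side, and Frem3, Vgll3, Cldn22, Cd109 and Osr1 on the negative side. Pou3f1 stood among the CA1 markers used here. It lay between 3.54 and 71.9 CPM in CSDS mice, highest in mouse 20, and between 10.6 and 45.0 CPM in CTRL mice. The CSDS mice alone thus spanned the range of all 20 mice.

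PC2 was led on the positive side by AC165951.1, A830036E02Rik, Gm9008, Pla2g2f and Tnfrsf8, and on the negative side by Vgll3, Gm38393, Pde11a, Dchs2 and AC134468.1. A830036E02Rik lay between 0.05 and 36.9 CPM in CSDS mice and between 0.05 and 28.0 CPM in CTRL mice. It was thus nearly silent in some mice of each group and well expressed in others. PC3 (11.6% of variance) had a group mean of -6.12 in CSDS mice and 6.12 in CTRL mice, with a permutation p of 0.0153 that became 0.0767 when adjusted over the 5 components tested. Without mouse 11 the smallest adjusted p over 5 components was 0.443, and the third component had a permutation p of 0.133.

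Among genes with a mean of at least 1 CPM, 452 (2.91%) were higher and 393 (2.53%) lower in CSDS mice at an unadjusted p under 0.05. The 12 with the smallest p in each direction are described next. They were selected for their p-values among all of these genes, each had an adjusted p of 0.896 in edgeR, and each is given as a measurement, not as a changed gene. All 24 kept an unadjusted p under 0.05 when any of the 20 mice was left out, which their selection in the same mice makes likely. In at least 1 other setting of the fit, St6galnac2, Zbtb8a and Kcnj8 did not keep it.

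The highest rank went to G530011O06Rik, a noncoding transcript on chromosome X (GRCm38, 169975043 to 169978917, minus strand) whose span overlaps Mid1 on the other strand. It lay between 0.903 and 1.98 CPM in CSDS mice (median 1.67) and between 0.170 and 1.14 CPM in CTRL mice (median 0.538). All 10 CSDS mice lay above the CTRL median and 7 lay above every CTRL mouse. The LFC was 1.31 (SE 0.31, edgeR unadjusted p = 0.000154; permutation test, p = 0.00018). The kit keeps the strand of a read, but the strand setting of the counting is not given in the sources used here, so reads of Mid1 in this count cannot be told apart.

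H2-T22 encodes a class Ib MHC protein, known as a ligand of some γδ T cell receptors, and lies on chromosome 17 (36037128 to 36042747, minus strand). In CSDS mice it lay between 0.731 and 9.40 CPM (median 4.08), and in CTRL mice between 0.622 and 1.15 CPM (median 0.852). The CSDS mice fell into 5 with high values (mice 3, 6, 11, 12 and 20, at 6.99 to 9.40 CPM) and 5 with low values (0.731 to 1.16 CPM), of which 4 lay within the range of the CTRL mice. The same 5 mice were the high ones in the mPFC, at 8.65 to 10.2 CPM. Its neighbor H2-T23, another class Ib gene, was 1.67 to 4.11 CPM in those 5 mice and 0.751 to 1.06 CPM in the other CSDS mice. In the saline groups, mice 2 and 15 (CSDS, 8.00 and 7.62 CPM) and mouse 22 (CTRL, 9.22 CPM) were high as well. With ketamine, 6 of 10 CSDS mice lay above every CTRL mouse, and the LFC was 2.29 (SE 0.57, edgeR unadjusted p = 0.000221, adjusted p = 0.896; permutation test, p = 0.00726). Over the settings run here it lay between 1.49 and 2.52. With saline it was 0.39 (SE 0.54), and the interaction had an unadjusted p of 0.0191 and an adjusted p of 1.00 in edgeR. Near-identical class I genes can share reads, so values of this family are uncertain.

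**Figure D2:**
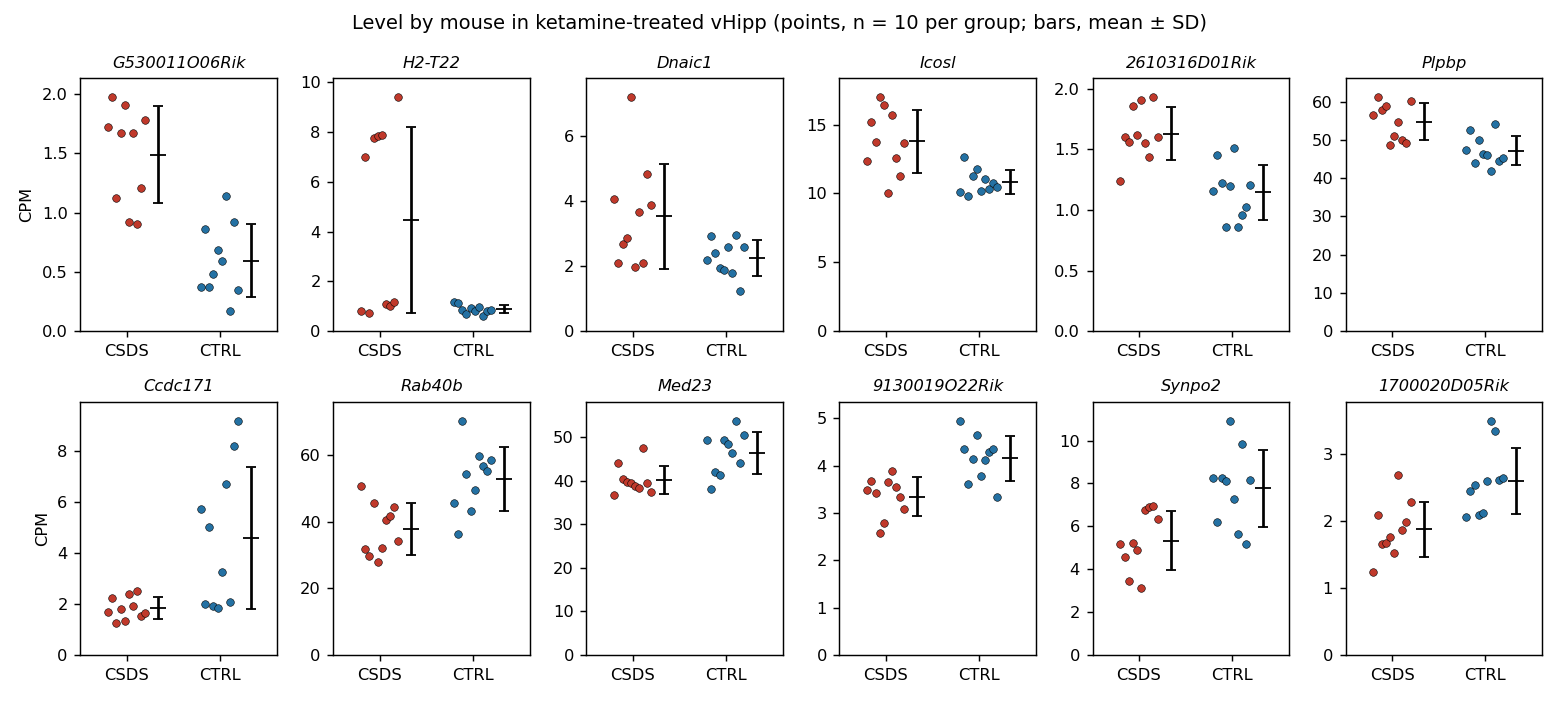
Level in CPM (y axis, from 0) of the 6 genes higher (top row) and the 6 lower (bottom row) with the smallest p, in CSDS and CTRL mice given ketamine; points are mice (n = 10 per group) and bars the mean ± SD. G530011O06Rik shows 7 CSDS mice above every CTRL mouse, while H2-T22 in CSDS mice and Ccdc171 in CTRL mice each split into a high and a low set.

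2610316D01Rik, a noncoding transcript on chromosome 3 (45280437 to 45378260), lay between 1.24 and 1.93 CPM in CSDS mice (median 1.60) and between 0.858 and 1.51 CPM in CTRL mice (median 1.17). Here 8 of 10 CSDS mice lay above every CTRL mouse, the most of any of the 12. The LFC was 0.50 (SE 0.14, edgeR unadjusted p = 0.00102; permutation test, p = 0.00022). The difference had the other sign in saline-treated mice (LFC -0.25, SE 0.14) and in the mPFC (-0.17, SE 0.09).

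Of the other genes that were higher, Icosl, the ligand of the T cell costimulator ICOS, lay between 10.1 and 17.0 CPM in CSDS mice (median 13.7) and between 9.80 and 12.6 CPM in CTRL mice (median 10.6), with an LFC of 0.34 (SE 0.10). Kcnj8, the pore subunit of an ATP-sensitive potassium channel of pericytes and smooth muscle, lay between 1.31 and 4.84 CPM (median 2.41) and between 1.28 and 2.48 CPM (median 1.57), with an LFC of 0.65 (SE 0.19). Kcnj8 was also higher in saline-treated CSDS mice (LFC 0.60, SE 0.19, edgeR unadjusted p = 0.00344), and without mouse 11 its LFC was 0.52. Mmp15, a membrane-bound matrix metalloproteinase, lay between 30.5 and 46.0 CPM against 28.1 to 34.3 CPM, with all 10 CSDS mice above the CTRL median. Mylk, the myosin light chain kinase of contractile cells, had an LFC of 0.30 (SE 0.09) with ketamine, and of 0.23 without mouse 11. With saline its LFC was -0.09 (SE 0.09). The interaction, with mouse 11 included, had an unadjusted p of 0.00509 in edgeR and an adjusted p of 1.00.

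Among the rest of the 12, Dnaic1, an intermediate chain of the dynein of motile cilia, lay between 1.96 and 7.19 CPM in CSDS mice (median 3.26) and between 1.23 and 2.94 CPM in CTRL mice (median 2.29), with the highest value in mouse 11. Its LFC was 0.64 (SE 0.17), and 0.47 without mouse 11. The span of Dnaic1 overlaps that of Enho on the other strand. Plpbp, which binds the vitamin B6 cofactor pyridoxal phosphate, lay between 48.8 and 61.2 CPM against at most 54.2 CPM, and all 10 CSDS mice lay above the CTRL median. Sardh, a mitochondrial dehydrogenase of sarcosine, had an LFC of 0.34 (SE 0.10), and of 0.26 without mouse 11. Gucy2f, a guanylyl cyclase known from the retina, had an LFC of 0.54 (SE 0.16), and St6galnac2, a sialyltransferase, one of 0.71 (SE 0.22) that was 0.51 without mouse 11. The symbol St6galnac2 names 2 overlapping identifiers in the annotation, so its count is uncertain.

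Ccdc171, a coiled-coil protein gene on chromosome 4 (83525545 to 83864670), headed the genes that were lower in CSDS mice. It lay between 1.27 and 2.52 CPM in CSDS mice (median 1.74) and between 1.84 and 9.18 CPM in CTRL mice (median 4.13), with an LFC of -1.31 (SE 0.33, edgeR unadjusted p = 0.000247; permutation test, p = 0.0026). The spread lay among the CTRL mice, of which 5 (mice 21, 25, 34, 37 and 40) had 5.02 to 9.18 CPM and the other 5 had 1.84 to 3.24 CPM. No CSDS mouse given ketamine was in the high range. In saline-treated mice such high values occurred in both groups, for example 8.60 CPM in mouse 2 (CSDS) and 7.83 CPM in mouse 33 (CTRL), and the LFC was 0.04 (SE 0.31). The mPFC of the same 5 CTRL mice had 2.80 to 7.86 CPM against 1.24 to 2.37 CPM in the other 5 CTRL mice. Like H2-T22, Ccdc171 thus differed between single mice in both of their regions.

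Rab40b, a small GTPase of a ubiquitin ligase complex, lay between 27.9 and 50.9 CPM in CSDS mice (median 37.3) and between 36.5 and 70.3 CPM in CTRL mice (median 54.7). All 10 CSDS mice lay below the CTRL median, and the LFC was -0.48 (SE 0.12, edgeR unadjusted p = 0.000292). Med23, a subunit of the Mediator complex of transcription, lay between 36.9 and 47.5 CPM against 38.1 to 53.8 CPM, with an LFC of -0.20 (SE 0.06). In the mPFC Med23 was -0.16 (SE 0.05, edgeR unadjusted p = 0.00151) and Rab40b -0.18 (SE 0.09, edgeR unadjusted p = 0.0467). Both were therefore lower at an unadjusted p under 0.05 in each region of the ketamine-treated mice.

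Tmod1, which caps actin filaments, lay between 21.3 and 47.4 CPM in CSDS mice (median 29.9) and between 33.3 and 52.9 CPM in CTRL mice (median 40.5), with 7 CSDS mice below every CTRL mouse and an LFC of -0.40 (SE 0.12). Synpo2, an actin-binding protein, had an LFC of -0.54 (SE 0.15), and all 10 CSDS mice lay below its CTRL median. Cemip2, a hyaluronan-degrading surface enzyme, was lower with ketamine (LFC -0.28, SE 0.08) and with saline (LFC -0.21, SE 0.08). Pigb, a mannosyltransferase that builds the GPI anchor of surface proteins, had an LFC of -0.20 (SE 0.06). These last differences were small, as the 10 CSDS values of Pigb (17.4 to 22.2 CPM) overlapped the CTRL values (19.5 to 25.1 CPM).

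Of the other 5, Mex3b, an RNA-binding protein, lay between 12.1 and 16.1 CPM in CSDS mice and between 14.1 and 19.0 CPM in CTRL mice, with an LFC of -0.28 (SE 0.08; permutation test, p = 0.0004). Gmeb1, named for binding a glucocorticoid modulatory element, had the smallest difference of the 24, an LFC of -0.15 (SE 0.05). Zbtb8a, a zinc finger protein, lay between 2.81 and 4.82 CPM against 3.56 to 5.97 CPM, with an LFC of -0.36 (SE 0.11). The remaining pair, 9130019O22Rik and 1700020D05Rik, had LFCs of -0.31 (SE 0.09) and -0.46 (SE 0.13).

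**Figure D3:**
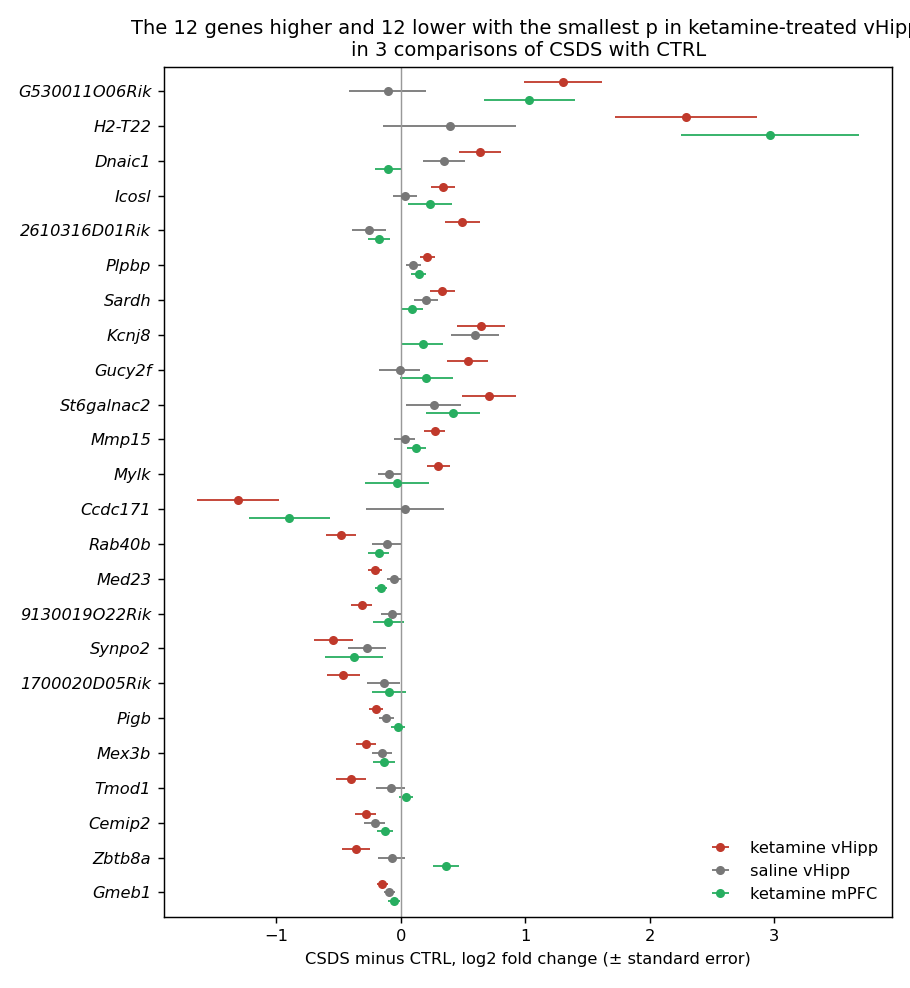
LFC of CSDS minus CTRL mice (x axis, log2 units, bars ± SE) for the 12 genes higher and 12 lower with the smallest p in ketamine-treated vHipp, beside the same contrast in saline-treated vHipp and in the mPFC of ketamine-treated mice. Saline values of most genes lie nearer to 0, and Zbtb8a lies on opposite sides of 0 in the 2 regions. Values nearer to 0 outside the ketamine-treated vHipp are to be expected, since the genes were selected there.

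The saline-treated mice, which share no library with the ketamine-treated mice, gave the same contrast without the drug. There, too, 0 of 28991 genes passed (0%, smallest adjusted p 0.346), with 890 (3.07%) higher and 725 (2.5%) lower at an unadjusted p under 0.05 in edgeR. The interaction of stress and ketamine tests the difference between treatments itself. Of the same 28991 genes it gave 0 with an adjusted p under 0.05 (smallest 1.00), and 435 higher and 388 lower at an unadjusted p under 0.05. Both numbers were below those of the ketamine contrast, 814 (2.81%) and 758 (2.61%). Of the 24 genes, 2610316D01Rik had the smallest interaction p (LFC 0.75, SE 0.20, edgeR unadjusted p = 0.000446, adjusted p = 1.00), followed by G530011O06Rik (1.41, SE 0.44) and Ccdc171 (-1.34, SE 0.45). No gene was thus shown to respond to stress differently with and without ketamine. The 24 had been selected in the ketamine contrast, which the interaction contains, so their interaction p-values are not free of that selection.

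In the mPFC of the ketamine-treated mice, 0 of 28993 genes passed (0%, smallest adjusted p 0.830), with 702 (2.42%) higher and 979 (3.38%) lower at an unadjusted p under 0.05 in edgeR. Since these libraries come from the same mice, agreement between regions is no independent support. Without the mouse as a block, the smallest p for the difference between regions was that of Zbtb8a. Its LFC in the mPFC was 0.36 (SE 0.11). The mPFC minus vHipp difference was 0.72 (SE 0.15, edgeR unadjusted p = 7.88e-06, adjusted p = 0.248). With the mouse as a block, which uses the pairing of regions within 19 mice, it was 0.69 (SE 0.16, unadjusted p = 0.000217, adjusted p = 1). 2610316D01Rik (difference -0.66, SE 0.16), Dnaic1 (-0.74, SE 0.20) and Tmod1 (0.44, SE 0.13) were the other genes of the 24 with an unadjusted p under 0.002 for the region difference in the fit without the block. With the block 2610316D01Rik (edgeR unadjusted p = 0.000129, below that of Zbtb8a) and Tmod1 kept it, and Dnaic1 had a p of 0.0059 (-0.72, SE 0.24). None of these passed adjustment over all genes, and the 24 had been selected in the vHipp contrast that the region difference contains.

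The reference genes of the study's qPCR had small differences. Gapdh had an LFC of 0.04 (SE 0.09, edgeR unadjusted p = 0.686) and Rpl13 one of 0.09 (SE 0.07, unadjusted p = 0.203).

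Gene lists were then read by cell type and function. They were chosen with earlier results of these data known, so a share above that of all genes is no independent support. The 41 lists held 432 distinct genes tested, of which 33 (7.64%) were higher and 10 (2.31%) lower at an unadjusted p under 0.05, beside 2.81% and 2.61% of all genes. Without mouse 11 they were 13 (3.01%) and 7 (1.6%), beside 1.97% and 2.17% of all genes, and 12 of the 33 higher members were among the 13. Without any 1 of the other 19 mice, 21 (without mouse 37) to 53 (without mouse 16) members were higher. The lower members were 5 (without mouse 20) to 31 without any 1 of the 20, the most being without mouse 16 (7.18%, beside 3.36% of all genes). Of the 43 members at that p, 8 kept it in all 20 fits that left out 1 mouse. No member of any list had an adjusted p under 0.05. The median LFC of all genes tested was 0.01, and list medians are to be read against it. Members of a list can vary together across mice, so their number is not a number of independent observations.

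**Figure D4:**
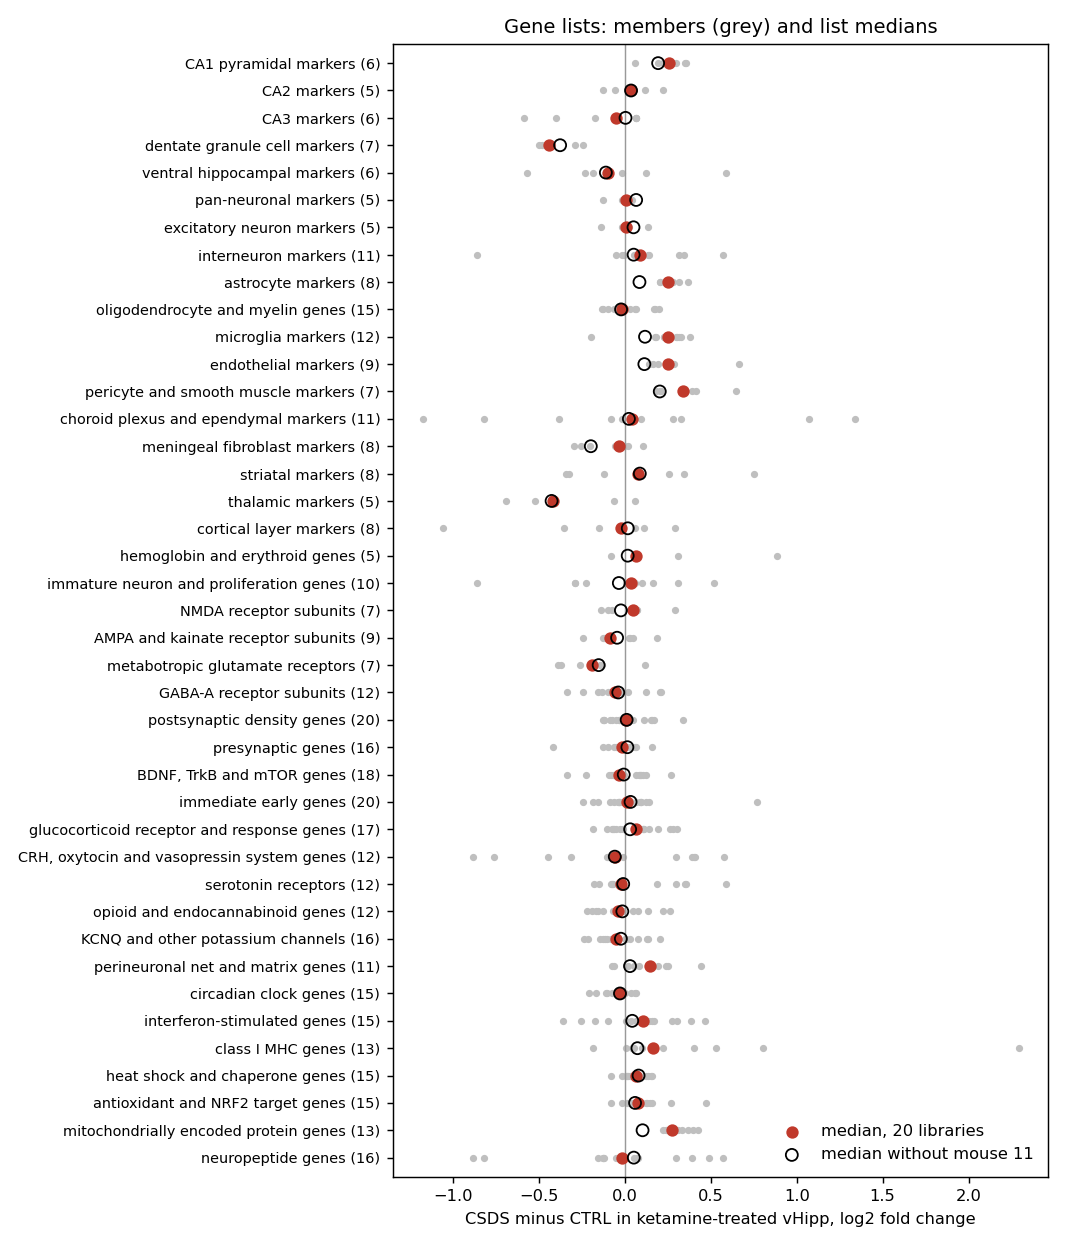
LFC of CSDS minus CTRL mice in ketamine-treated vHipp (x axis, log2 units) for the members of each of the 41 lists (grey points, number of genes tested in brackets), with the median over the 20 libraries (filled) and without mouse 11 (open). Medians of astrocyte, microglia, endothelial, pericyte and mitochondrially encoded lists move toward 0 without mouse 11, and the dentate granule cell median stays near -0.4.

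Of the 7 dentate granule cell markers, 3 were lower in CSDS mice at an unadjusted p under 0.05 and none passed adjustment. All 7 had a negative LFC (median -0.44). Prox1, the transcription factor that keeps granule cell identity, lay between 53.4 and 209 CPM in CSDS mice (median 126.1) and between 104.4 and 248 CPM in CTRL mice (median 198). Its LFC was -0.50 (SE 0.22, edgeR unadjusted p = 0.0264, adjusted p = 0.896), and 9 of 10 CSDS mice lay below the CTRL median. Stxbp6, a syntaxin-binding protein, lay between 59.9 and 182 CPM (median 105.4) against 101.3 to 188 CPM (median 153.3), with an LFC of -0.44 (SE 0.18). C1ql2, a secreted protein of mossy fiber synapses, had an LFC of -0.45 (SE 0.20), and of -0.31 (edgeR unadjusted p = 0.122) without mouse 36. The values of the groups overlapped for each of the 3.

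The 7 markers summed to 190 to 643 CPM in CSDS mice (median 379) and 366 to 719 CPM in CTRL mice (median 565). The list median was -0.38 without mouse 11, where 2 of 7 reached an unadjusted p under 0.05, and the number of members that did so was between 1 and 4 when single mice were left out, fewest without mouse 5, the mouse with the lowest sum, and without mouse 36 (CTRL). Saline-treated CSDS mice had a median of -0.33 on the same list, with 7 of 7 negative and C1ql2 at -0.51 (SE 0.20). In the mPFC, where these genes are low, the median was 0.05. The share of dentate gyrus in a tissue punch was not measured, and a punch with fewer granule cells and a lower level in each of them cannot be told apart.

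CA1, CA2 and CA3 markers had no member at an unadjusted p under 0.05, with medians of 0.26, 0.03 and -0.05. The CA1 median lay between 0.08 and 0.45 when 1 mouse was left out. CA1 sums lay between 124.1 and 581 CPM in CSDS mice and reached 498 CPM in CTRL mice, so mice within a group differed several-fold. In saline-treated mice 5 of 6 CA1 markers were higher in CSDS mice at an unadjusted p under 0.05, with a median of 0.81. The punches of the 4 vHipp groups thus differed in their balance of dentate and CA1 markers from mouse to mouse. Choroid plexus and ependymal markers, a sign of ventricle lining in a punch, had a median of 0.04 with 0 of 11 members at that p in ketamine-treated mice, and of 1.66 with 6 of 11 in saline-treated mice. In the latter, mouse 9 (CSDS) had a sum of 968 CPM, the other CSDS mice had at most 200.01 CPM, and the group medians were 112.3 (CSDS) and 100.3 CPM (CTRL).

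**Figure D5:**
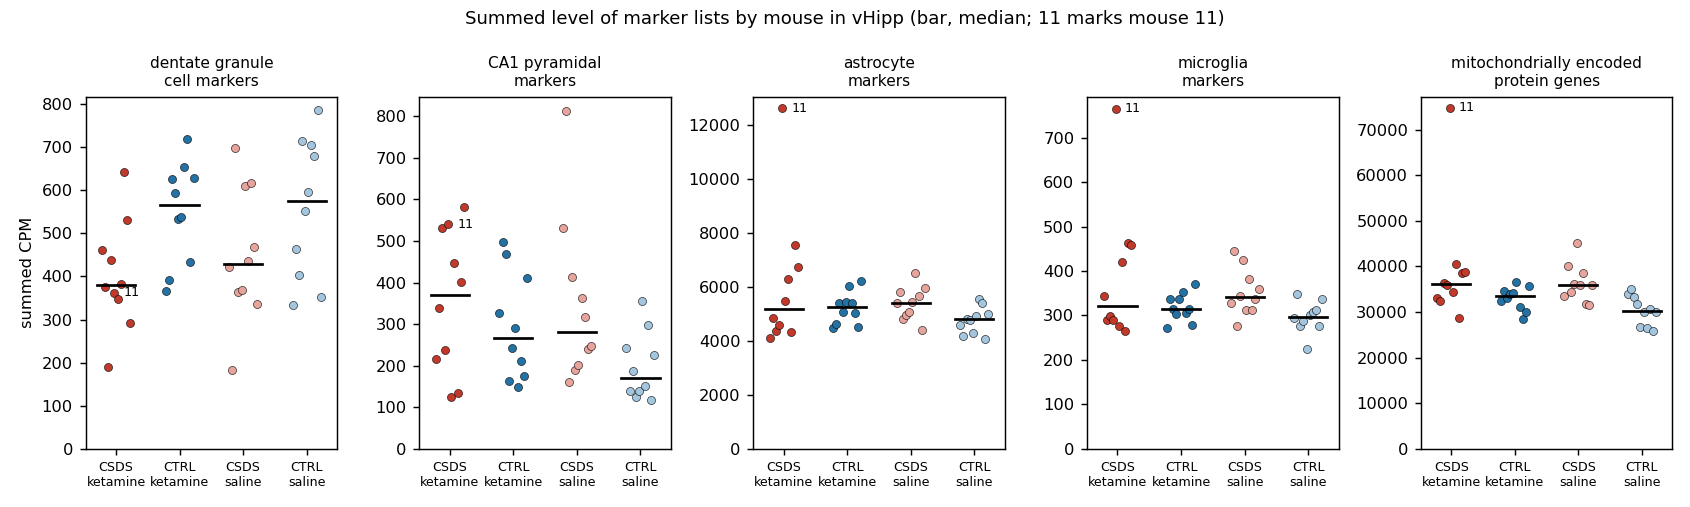
Summed CPM (y axis, from 0) of 5 lists by mouse in the 4 vHipp groups; points are mice (n = 10 per group), the bar is the median and 11 marks mouse 11. The dentate granule cell sums have medians of 379 CPM in CSDS and 565 CPM in CTRL mice given ketamine, and mouse 11 is the highest library for astrocyte, microglia and mitochondrially encoded genes.

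Glial and vascular lists differed in how many members were higher in CSDS mice, and several values rested on mouse 11. Of 12 microglia markers, 6 were higher at an unadjusted p under 0.05 (among them Cx3cr1, P2ry12, Tmem119, Csf1r and Itgam), with a list median of 0.25. The LFC was positive for 11 of them and negative for 1, Aif1 (-0.20). Without mouse 11 the number higher at that p was 0, the list median 0.12 and Aif1 at -0.25. Cx3cr1, the fractalkine receptor, lay between 38.5 and 122.5 CPM in CSDS mice (median 47.3) and between 35.9 and 51.4 CPM in CTRL mice (median 44.4), and its LFC moved from 0.38 (SE 0.13) to 0.19 without mouse 11. Microglia markers summed to 766 CPM in mouse 11, to 266 to 462 CPM in the other 9 CSDS mice, and to 271 to 372 CPM in CTRL mice. Without any 1 of the other mice 2 to 7 of them were higher, the fewest without mouse 17, 20 or 21.

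Of 8 astrocyte markers, 3 were higher at that p (Aldh1l1, Aldoc and Gja1), with a list median of 0.25. The count was 0 in 8 of the 20 fits that left out 1 mouse, and the median was lowest without mouse 11, at 0.08, and next lowest without mouse 17, at 0.22. Gja1, the astrocytic gap junction protein connexin 43, had equal medians of 213 CPM in both groups, while mouse 11 had 591 CPM. The 13 mitochondrially encoded protein genes had 5 members higher, a median of 0.27 and no negative value, against 1 member and 0.10 without mouse 11. Pericyte and smooth muscle markers kept 2 of their 3 members without mouse 11, Rgs5 (LFC 0.41, SE 0.13, and 0.25 without it) and Kcnj8, while Pdgfrb did not (0.20, edgeR unadjusted p = 0.0651). Endothelial markers had 1 of 9 members higher with and without it, Bsg (LFC 0.14, SE 0.06), and all 9 had a positive LFC (median 0.25, and 0.11 without mouse 11). Their number was 0 in 4 of the fits that left out 1 mouse and 5 without mouse 5 or mouse 6. Oligodendrocyte and myelin genes had 0 of 15 members at an unadjusted p under 0.05 and a median of -0.02. In saline-treated mice, which do not include mouse 11, CSDS mice had higher values at that p for 4 of 12 microglia, 1 of 8 astrocyte, 4 of 9 endothelial, 2 of 7 pericyte and smooth muscle, 0 of 15 oligodendrocyte and 8 of 13 mitochondrially encoded genes.

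Neuronal markers as a whole differed little. Pan-neuronal and excitatory neuron markers had 0 of 5 members each at an unadjusted p under 0.05 and medians of 0.01. Of 11 interneuron markers, Vip was higher (LFC 0.57, SE 0.22), from 7.84 to 44.9 CPM in CSDS mice, with mouse 11 the highest, against 8.32 to 23.6 CPM in CTRL mice. Its LFC without mouse 11 was 0.36 (edgeR unadjusted p = 0.0858). Of the same list 4 members had a negative LFC, down to -0.86 for Calb2, and the median was 0.09. Markers of neighboring regions differed at single genes. Of 8 striatal markers 2 were higher, Adora2a and Ppp1r1b (LFC 0.75 and 0.35), while 3 had a negative LFC, down to -0.34 for Drd2, and the list median was 0.08. Adora2a was at 4.97 CPM in mouse 17 and at most at 2.49 CPM in the other CSDS mice. Without mouse 17 the LFC of Adora2a was 0.41 (edgeR unadjusted p = 0.0893). Of 5 thalamic markers 1 was lower, Tcf7l2 (-0.69), with a list median of -0.42 that lay between -0.50 and -0.06 when 1 mouse was left out. Of 8 cortical layer markers 1 was lower, Foxp2 (-1.06), with a list median of -0.02 and 3 positive members, up to 0.29 for Rorb. Tcf7l2 reached 29.9 CPM in a CTRL mouse while the CSDS mice had at most 12.6 CPM. Without mouse 21 (CTRL) the LFC of Tcf7l2 was -0.36 (edgeR unadjusted p = 0.264), and its p was under 0.05 in 9 of the 20 fits. Of 10 immature neuron and proliferation genes 1 was lower, Sox11 (-0.29, SE 0.13; in 13 of the 20 fits), and the list median was 0.03.

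The NMDA receptor, ketamine's target, had no subunit called at the level of mRNA. None of the 7 had an unadjusted p under 0.05. Their median LFC was 0.05, and lay between -0.05 and 0.10 when 1 mouse was left out. Grin1, the obligatory subunit, lay between 399 and 650 CPM in CSDS mice (median 624.8) and between 557 and 712 CPM in CTRL mice (median 630), and the 95% interval of its LFC was -0.21 to 0.06. Grin2a and Grin2b, the main glutamate-binding subunits of the forebrain, had LFCs of -0.10 (interval -0.29 to 0.10) and -0.14 (interval -0.37 to 0.09). Changes of the mean by 1.5-fold lay outside these 3 intervals. Grin2c had the list's largest LFC, 0.29 (interval -0.02 to 0.60), and 0.15 without mouse 11. AMPA and kainate receptor subunits (0 of 9, median -0.09), metabotropic glutamate receptors (0 of 7, median -0.19) and GABA-A receptor subunits (0 of 12, median -0.06) likewise had no member at that p.

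Synaptic scaffold and release genes differed little as well. Postsynaptic density genes had 0 of 20 members at an unadjusted p under 0.05 and a median of 0.01. Of 16 presynaptic genes, Syn3, a synapsin that binds synaptic vesicles, was lower, between 4.73 and 12.1 CPM in CSDS mice (median 6.63) against 7.87 to 13.5 CPM in CTRL mice (median 9.22). Its LFC was -0.42 (SE 0.18), and 8 of 10 CSDS mice lay below every CTRL mouse. The p was under 0.05 in 18 of the 20 fits that left out 1 mouse. In the mPFC Syn3 had an LFC of -0.26 (SE 0.08, edgeR unadjusted p = 0.00183). Its span overlaps Timp3 on the other strand.

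Bdnf was the only 1 of the 18 BDNF, TrkB and mTOR genes with an unadjusted p under 0.05. It lay between 25.3 and 48.6 CPM in CSDS mice (median 34.3) and between 40.0 and 49.2 CPM in CTRL mice (median 43.5), and 6 CSDS mice lay below every CTRL mouse. The LFC was -0.23 (SE 0.11, edgeR unadjusted p = 0.0383, adjusted p = 0.896; permutation test, p = 0.02), and without mouse 11 it was -0.18 (unadjusted p = 0.0888). The p was under 0.05 in 12 of the 20 fits that left out 1 mouse. Saline-treated mice had nearly the same value (LFC -0.20, SE 0.11), and the mPFC had -0.01 (SE 0.10). Bdnf mRNA is abundant in dentate granule cells, whose markers all had a negative LFC in the same mice, and the part of that in the value of Bdnf was not tested. Ntrk2, which encodes TrkB, had an LFC of 0.09 (SE 0.09), and Mtor one of -0.04 (SE 0.07).

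The hormonal stress systems gave few values apart from 0. Nr3c1, the glucocorticoid receptor, had an LFC of -0.11 (SE 0.10), Nr3c2, the mineralocorticoid receptor, -0.06 (SE 0.08), and Fkbp5, a chaperone that glucocorticoids induce, -0.03 (SE 0.07, interval -0.17 to 0.11). Of the 17 genes of that list, Errfi1, an inhibitor of EGF receptor signaling, was higher (0.11, SE 0.05; in 11 of the 20 fits). In the CRH, oxytocin and vasopressin systems, 12 of 13 genes could be tested, and Ucn was filtered out for low counts. Crhbp, which binds and inactivates CRH, was higher (0.58, SE 0.29) but kept an unadjusted p under 0.05 in 8 of the 20 fits that left out 1 mouse, with an LFC of 0.38 (edgeR unadjusted p = 0.183) without mouse 5. The vasopressin receptor Avpr1a was lower (-0.76, SE 0.37) at levels of 0 to 0.735 CPM. Avpr1a kept that p in 10 of the 20 fits, and its LFC was -0.65 (edgeR unadjusted p = 0.0758) without mouse 11. Avpr1a had the same sign in the mPFC (-1.54, SE 0.57).

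Among immediate early genes, which report recent neuronal activity, 1 of 20 was higher, Egr2, at 0.218 to 1.37 CPM in CSDS mice (median 0.695) and 0.115 to 0.797 CPM in CTRL mice (median 0.419), with an LFC of 0.77 (SE 0.35). Its p was under 0.05 in 13 of the 20 fits that left out 1 mouse. Serotonin receptors had 2 of 12 members higher, Htr2c (0.59, SE 0.28) and Htr7 (0.36, SE 0.15). Htr7, coupled to the production of cyclic AMP, lay between 8.39 and 22.8 CPM (median 15.2) against 7.46 to 17.7 CPM (median 10.7), with 9 of 10 CSDS mice above the CTRL median. It was also higher in the mPFC (LFC 0.45, SE 0.14, edgeR unadjusted p = 0.0027) but not in saline-treated vHipp (-0.10, SE 0.15). Htr2c, also the 1 of 6 ventral hippocampal markers that was higher, had an LFC of 0.55 (edgeR unadjusted p = 0.0676) without mouse 11, and kept a p under 0.05 in 10 of the 20 fits. In the ventral hippocampal list 4 of 6 members had a negative LFC, down to -0.57 for Trhr, and the median was -0.10.

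Channels, matrix and defense genes complete the lists. Kcnh1 was the 1 of 16 potassium and HCN channel genes that was lower (-0.22, SE 0.09). It kept that p in 15 of the 20 fits that left out 1 mouse, and its LFC was -0.18 (edgeR unadjusted p = 0.0663) without mouse 11. Of the same list, the KCNQ gene Kcnq3 (-0.08, SE 0.10) was near 0, and Kcnq5 had the largest LFC (0.20, and 0.28 without mouse 11). The cannabinoid receptor gene Cnr1 (0.26, 1 of 12 in its list) and the perineuronal net gene Bcan (0.24, 1 of 11) were higher, and kept that p in 12 and 10 of the 20 fits. Without mouse 11 their LFCs were 0.13 (edgeR unadjusted p = 0.227) and 0.15 (p = 0.175). Class I MHC genes had 3 of 13 members higher, H2-T22, H2-T23 (0.80, SE 0.32) and H2-T24 (0.53, SE 0.23), and 1 of 13, H2-T22, without mouse 11 (H2-T23 0.58 and H2-T24 0.46 there). Interferon-stimulated genes, which rise in inflamed tissue, had 0 of 15 and a median of 0.10. Antioxidant and NRF2 target genes had 2 of 15 members higher, the quinone reductase Nqo1 (0.47, SE 0.15) and catalase, Cat (0.16, SE 0.07), of which Nqo1 kept that p without mouse 11 (0.32) and Cat did not (0.09, edgeR unadjusted p = 0.143). Circadian clock genes (0 of 15, median -0.03) and chaperones (0 of 15, median 0.07) had none.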

How the data were processed

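RNA of 1 mm tissue punches was sequenced from stranded mRNA libraries, after the authors had removed samples with an RNA integrity number under 8. The authors deposited unnormalized read counts for 55471 gene identifiers of GRCm38, as whole numbers. The submitters' processing notes name bcl2fastq 2.20.0.422, and the read aligner and the counter are not given in the sources used here. GENCODE symbols were matched for 55144 identifiers, and 327 had none. Region, stress, treatment and mouse number came from the sample labels. The gene lists and their members were chosen with earlier results of these data known.

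Genes with more than 10 counts in total and with a read in more than 3 of a region's libraries were tested with edgeR's quasi-likelihood test (edgeR 4.0.16, R 4.3.3), with TMM normalization, the 4 groups of the region in 1 fit, no covariate and Benjamini-Hochberg adjustment over all genes (threshold 0.05, two-sided). The standard error is the LFC divided by the square root of the F statistic. The study's own model had the SB as a covariate, which the labels do not give. Named genes were the 12 higher and 12 lower with the smallest unadjusted p among genes with a symbol and a mean of at least 1 CPM, list members with an unadjusted p under 0.05, H2-T22, Gapdh and Rpl13, and the leading genes of the first 2 principal components. CPM used TMM factors. Permutation tests of log2(CPM + 0.5) drew 100000 resamples (scipy 1.17.1). The steps were tested on simulated data. Alternatives were DESeq2 1.42.0, limma-voom (limma 3.58.1), RLE normalization, other filters, only ketamine-treated mice, sets of mouse numbers as a covariate, and leaving out mice or sets. A set joins a run of 4 consecutive mouse numbers of CSDS mice with 1 of CTRL mice, and the labels do not tie it to an SB. Leaving out mouse 11 or mouse 1 for the lists and components was chosen after seeing the data. A few genes and their values are not reported here.

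Libraries of the same mouse number in the 2 regions come from the same mouse, by the labels. Over 19 mice, deviations from the group mean correlated between regions with r of -0.02 to 0.64 (median 0.25, across 15512 genes), and a model that blocks on the mouse was run for the region difference. No libraries were identical. The closest pair of each group differed by 7.00 (CSDS) and 7.71 (CTRL) times the variation that counting alone gives.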

Additional observations from a re-analysis of the deposited data

Results flagged for a closer look

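In 220 sets of 10 mice (a named gene, a list sum or the total count in a group), the highest or lowest value was set against the others with Dixon's criterion. A value far from the rest was held by 34 sets. About 1 in 20 (11) would be the number for sets chosen without regard to their values. Many of these genes were named for a p under 0.05, and 12 of 33 higher list members kept it without mouse 11. The 11 is therefore no fair baseline. The values of one library are not independent of each other.

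Of the 34, 23 were high values of mouse 11 in the CSDS group. For glial and vascular genes they were Csf1r 174 CPM, Cx3cr1 122.5 CPM, Itgam 13.8 CPM, P2ry12 92.9 CPM, Gja1 591 CPM, Rgs5 174 CPM and Mylk 33.4 CPM. The summed astrocyte markers were 12606 CPM, the summed microglia markers 766 CPM and the summed pericyte and smooth muscle markers 403 CPM. For mitochondrially encoded genes they were mt-Co1 24427 CPM, mt-Cytb 12592 CPM, mt-Nd1 11687 CPM and mt-Nd4 7632 CPM, with 74827 CPM for the list. Other genes of this mouse were St6galnac2 7.77 CPM, Cat 68.1 CPM, Cnr1 690 CPM, Nqo1 8.29 CPM and Vip 44.9 CPM, with summed excitatory neuron markers of 10409 CPM, opioid and endocannabinoid genes of 1388 CPM and perineuronal net and matrix genes of 2151 CPM. The summed pan-neuronal markers of mouse 11 were 3622 CPM, the lowest of its group, so lists of one broad cell type pointed in different directions. The part of tissue composition or library preparation in these values was not tested.

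The other 11 were spread over 8 mice. Adora2a was 4.97 CPM in mouse 17 (CSDS). In the CTRL group, C1ql2 was 116.2 CPM in mouse 36 and Crhbp was 16.4 CPM in mouse 23. Mouse 32 had Cnr1 at 431 CPM, Vip at 23.6 CPM and summed interneuron markers of 1761 CPM. Summed immediate early genes were 928 CPM in mouse 25. Mouse 40 had summed glucocorticoid receptor and response genes of 1147 CPM and summed class I MHC genes of 164 CPM. Total counts were 32814917 in mouse 16 (CSDS) and 41767119 in mouse 21 (CTRL).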

How the results depend on the processing

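No gene had an adjusted p under 0.05 in any setting run for any of the 5 comparisons, and the values below are numbers of genes with an unadjusted p under 0.05. In ketamine-treated vHipp, leaving out single mice gave 569 to 1182 higher and 562 to 969 lower genes, and leaving out sets of mouse numbers gave 468 (without set 5) to 959 higher and 499 (without set 4) to 993 lower. With edgeR's filterByExpr, which tests fewer genes, there were 384 lower in ketamine-treated vHipp, 589 higher and 384 lower in saline-treated vHipp, 163 higher and 99 lower for the interaction (216 lower by DESeq2), 423 higher and 603 lower in the mPFC, and 190 higher and 247 lower for the region difference. With the mouse as a replicate block, the paired fit of the region difference gave 464 higher and 502 lower genes against 591 and 703 without it, and changed no call. Of 2277 refits of the 67 named genes over 34 settings, 2276 kept the direction of the LFC, and the exception was Gapdh, at -0.042 without set 2. The cause of these shifts was not tested, apart from the smaller number of genes or mice in the settings named. The median SE of the LFC was 0.20 over all genes tested and 0.09 over those with a mean of at least 1 CPM, so differences of genes with few counts were measured less precisely.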

Other observations

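In this paragraph and the next, CPM are scaled to the plain library totals. Pecam1, an adhesion protein of endothelial cells and platelets, was counted 0 times in the vHipp library of mouse 25, a ketamine-treated CTRL mouse, and 7 times in its mPFC library (0.340 CPM). In the saline groups, mouse 13 (CSDS) and mouse 29 (CTRL) had 0 counts in the vHipp, and 1 and 5 counts in the mPFC. The other 37 vHipp libraries had 65 to 467 counts (4.87 to 29.2 CPM) and the other 36 mPFC libraries at most 824 counts and at least 7.26 CPM. This gene was looked at after its values were seen. The other 8 endothelial markers of mouse 25 all lay at or above the lowest value of the other 9 CTRL mice, with Cldn5 at 20.5 CPM and Flt1 at 63.7 CPM.

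A search was then made over the 11590 genes with a median of at least 5 CPM in both regions of the ketamine-treated mice, for a mouse whose value lay below the median divided by 10 in both of its regions. It found 2 genes over 19 mice. They were Pecam1 in mouse 25, and 1500004A13Rik in mouse 31 (7 counts in the vHipp and 4 in the mPFC, against medians of 35.5 and 35.1 CPM) and in mouse 34 (8 and 22 counts). All 3 mice were CTRL mice. Together with H2-T22 and Ccdc171, these were values that differed between single outbred mice in the same way in both regions. The sequence of these mice was not analysed here, and what sets these levels was not tested.

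The gene lists not described above had few members at an unadjusted p under 0.05 in ketamine-treated vHipp. Meningeal fibroblast markers had 0 of 8 and a median LFC of -0.04, which was -0.20 without mouse 11, with all 8 negative. Hemoglobin and erythroid genes had 0 of 5 and a median of 0.07, and neuropeptide genes 1 of 16 (Vip, 0 without mouse 11) and -0.02. In saline-treated mice 3 of 5 hemoglobin and erythroid genes were higher in CSDS mice, with a median of 0.54 and Hba-a2 at -0.84. Their sum was 273 CPM in mouse 4 (CSDS) and at most 105.3 CPM in the other CSDS mice, and the group medians were 64.9 (CSDS) and 55.9 CPM (CTRL).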
